A study of Mus musculus with 24 samples.

Results

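The comparison described here set the 4 libraries taken 24 h after anti-CD3 against the 4 unstimulated libraries, all 8 from mice given propyzamide, out of 24 libraries in the series. Libraries were chosen by their labelled treatment, stimulation and time alone, and every mouse was a male C57BL/6 animal of 11 weeks. Propyzamide is a herbicide that blocks the assembly of plant microtubules, and anti-CD3 is an antibody against the CD3 chains of the T cell receptor complex. The other 16 libraries were propyzamide at 3 h after anti-CD3 and an empty vehicle without stimulation, at 3 h and at 24 h, each with 4 libraries. Both groups compared here carried propyzamide, so by label they differ in stimulation within treated mice. They also differ in i5 index, as given below. The sources used here give no dose, route, tissue or cell sort. Replicate numbers follow the order of the records. No label says that they came from separate animals, so p-values measure only the spread between these samples, which may be technical.

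Binding of CD3 cross-links the T cell receptor and starts the signalling that normally follows antigen. Activated T cells release interferon gamma and other cytokines, and interferons induce GTPases that attack vacuoles of pathogens, antiviral proteins, and the MHC class I machinery that displays peptides to CD8 T cells. Given to mice, anti-CD3 is also known as a model of small intestinal injury, in which enterocytes are lost. The small intestinal lining itself holds absorptive enterocytes, mucus-secreting goblet cells and, at the crypt base, Paneth cells that secrete lysozyme and alpha-defensins.

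The 24 h library numbered 3 stood apart from the other 7, so list medians and called genes are given with and without it and the levels of single genes in each library. It held 9812458 counts, against 630087 to 1587428 in the others, and 2938155 counts in named protein-coding genes, against 39614 to 151724. Named protein-coding genes leave out numbered or clone-named models, olfactory and vomeronasal receptors and mitochondrial genes. They took 29.9% of its counts and 4.62% to 9.63% in the others. Models related in sequence to Gm10800, called satellite-like here, took 40.2% of its counts and 73.3% to 82.1% elsewhere. Neither these shares nor that of mitochondrially encoded genes was shown to differ between the groups (exact permutation test, two-sided, p = 0.429 for protein-coding, 0.943 for satellite-like and 0.657 for mitochondrial, each 0.943 after adjustment over the 3 shares; the smallest p that 4 against 4 allows is 0.0286). The i5 index was ACTCTAGG in every unstimulated library and TCTTACGC in every 24 h library, so index and stimulation cannot be told apart. T cell transcripts were scarce: Cd3e, a chain of the receptor complex, had 0, 1, 4 and 0 counts in the unstimulated libraries and 3, 10, 313 and 8 at 24 h. Only 7 of 20 genes of the T cell receptor list passed the filter on low counts, against 17 of 18 B cell genes and 27 of 35 Paneth cell genes. In such bulk samples, fewer cells of a type and less RNA per cell cannot be told apart.

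Few genes passed the test, and how many did so depended on replicate 3. Of 3799 genes tested with edgeR's quasi-likelihood test, 3 were called over all libraries (0.0790% of those tested), Lag3 and Pml higher (0.0526%) and Zg16 lower (0.0263%) at 24 h. A gene was called where its p, adjusted by Benjamini-Hochberg, was at most 0.05. Without replicate 3 the number was 22 (0.579%), 8 higher (0.211%) and 14 lower (0.369%), among them the same 3 genes. The unadjusted p was under 0.05 for 547 genes with replicate 3 (14.4%) and for 449 without it (11.8%). All 22 genes had the same sign with all 8 libraries. The median log2 fold change of all tested genes was 0.03 with replicate 3 and 0.00 without it, and that of the 2464 named protein-coding genes was 0.27 and 0.17. These medians depended on the scaling: over all tested genes RLE factors gave 0.23 and factors from named protein-coding genes gave -0.22.

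Lag3 encodes an inhibitory receptor of activated T cells that binds MHC class II (chromosome 6, 124904361 to 124911705, minus strand, GRCm38). Its levels in CPM, which are counts scaled to a common library size by TMM factors and used throughout, were 1.67, 1.80, 1.11 and 0 in unstimulated replicates 1 to 4 and 14.7, 12.6, 17.2 and 14.5 at 24 h. The groups did not overlap, and the 4 libraries at 24 h lay close together. In unstimulated replicates 1 to 4, 1 count was worth 1.67, 0.900, 0.557 and 1.12 CPM, so the unstimulated levels rested on very few counts. Lag3 rose by 3.65 ± 0.71 (log2 fold change ± SE, n = 4 and 4, edgeR adjusted p = 0.0301), and by 3.50 ± 0.77 without replicate 3 (adjusted p = 0.0377). Pml, the scaffold of nuclear bodies and itself inducible by interferon (chromosome 9, 58218076 to 58249786, minus strand), had 1.67, 2.70, 1.67 and 3.35 CPM without stimulation and 3.26, 30.7, 22.5 and 18.7 CPM at 24 h. Replicate 1 at 24 h lay within the unstimulated range and the other 3 lay well above it. The unstimulated levels of Pml also rested on few counts, as did 24 h replicate 1, where 1 count was worth 1.63 CPM. Pml rose by 3.03 ± 0.62 on the log2 scale (edgeR adjusted p = 0.0386), and by 2.92 ± 0.67 without replicate 3 (adjusted p = 0.0426). Zg16, a lectin that goblet cells secrete into mucus (chromosome 7, 127050156 to 127087328, minus strand), had 50.1, 7.20, 53.0 and 43.6 CPM without stimulation and 0, 0, 1.78 and 5.19 CPM at 24 h. Every 24 h library lay below every unstimulated one, with 172 counts over the unstimulated group and 62 at 24 h, 5 of these outside replicate 3. Its log2 fold change was -4.37 ± 0.84 (edgeR adjusted p = 0.0301), and -4.28 ± 1.0 without replicate 3 (adjusted p = 0.0426). Leaving out unstimulated replicate 1, 3 or 4, or 24 h replicate 2 or 4, left no gene called. Leaving out unstimulated replicate 2 left only Zg16, and leaving out 24 h replicate 1 left 10 genes, 5 in each direction.

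**Figure D1:**
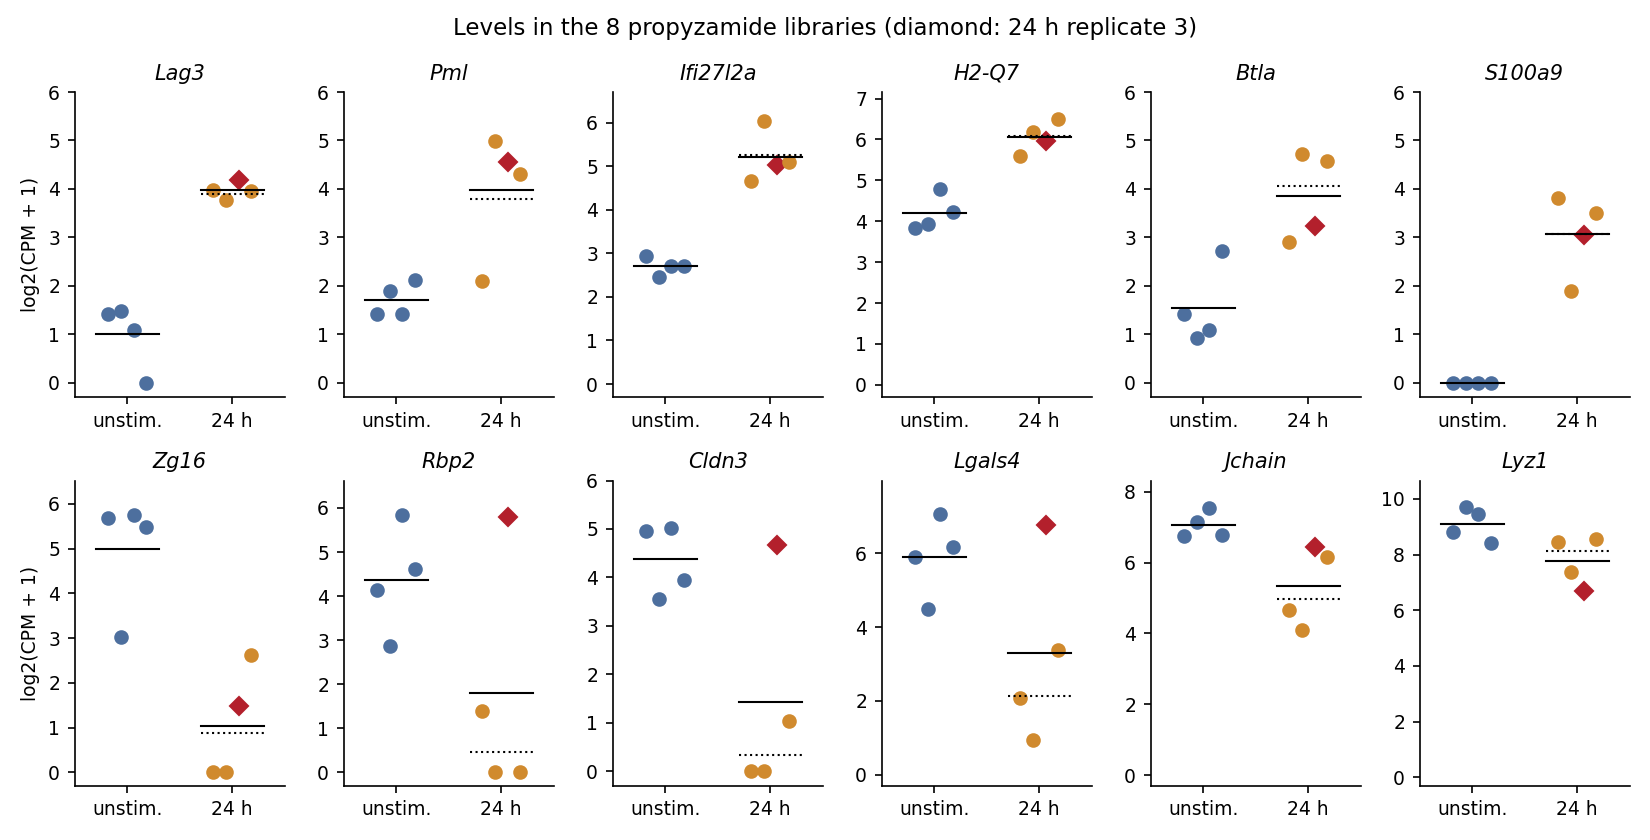
Levels of 12 genes in the 8 propyzamide libraries, as log2(CPM + 1) on the vertical axis, for unstimulated (left, blue) and 24 h (right, orange) libraries. Points are libraries in replicate order, the red diamond is 24 h replicate 3, solid lines are means of 4 libraries and dotted lines the 24 h mean without replicate 3. In the upper row replicate 3 sits with the other 24 h libraries; for Rbp2, Cldn3 and Lgals4 it sits with the unstimulated ones.

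Tested interferon-stimulated genes had positive log2 fold changes at 24 h with all libraries, and none of them passed the test. Of 19 interferon-inducible GTPases 9 were tested, and of 36 other interferon-stimulated genes 19 were. All of these 9 and 19 had positive log2 fold changes, with medians of 2.62 and 1.54 against 0.27 for named protein-coding genes. Without replicate 3 the medians were 1.40 and 1.37, and 18 of the 19 were positive. The groups did not overlap for 3 of the 9 GTPases and 10 of the 19 other genes, where 4.26% of all tested genes lay wholly above at 24 h. Summed over the list, the other interferon-stimulated genes reached 150.3, 125, 200.1 and 154 CPM without stimulation and 326, 523, 605 and 445 CPM at 24 h, with every 24 h library above every unstimulated one. The GTPases summed to 41.7, 53.1, 31.2 and 34.6 CPM and 112, 113, 250.4 and 126 CPM, with replicate 3 the highest. No member of either list was called with all libraries, and 1, Ifi27l2a, was called without replicate 3. Pml, named above, was in neither list.

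The promoters of 3 of these genes are shown because they hold letters of the elements through which interferons are known to act. Windows run from 250 bases before to 50 after the start of the gene in RefSeq, GRCm38.p6. Capitals mark every match, on either strand, to GAAA, any 2 bases and GAAA again, the core of the interferon-stimulated response element bound by IRF factors, or to TTCNNNGAA, the core of the gamma-activated site.
Igtp, chr11:58199306-58199605, plus strand: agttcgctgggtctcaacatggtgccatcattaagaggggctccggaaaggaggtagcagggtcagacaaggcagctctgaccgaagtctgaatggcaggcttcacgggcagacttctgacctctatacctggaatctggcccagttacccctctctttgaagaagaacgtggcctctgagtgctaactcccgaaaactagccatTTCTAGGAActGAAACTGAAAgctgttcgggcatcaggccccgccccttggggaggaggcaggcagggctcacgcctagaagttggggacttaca
Bst2, chr8:71537423-71537722, minus strand: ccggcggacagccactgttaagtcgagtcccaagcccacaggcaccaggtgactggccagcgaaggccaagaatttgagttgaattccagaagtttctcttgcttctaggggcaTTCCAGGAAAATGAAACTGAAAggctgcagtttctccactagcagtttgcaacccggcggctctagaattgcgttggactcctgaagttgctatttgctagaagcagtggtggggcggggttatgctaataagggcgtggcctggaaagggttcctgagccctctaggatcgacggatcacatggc
B2m, chr2:122147437-122147736, plus strand: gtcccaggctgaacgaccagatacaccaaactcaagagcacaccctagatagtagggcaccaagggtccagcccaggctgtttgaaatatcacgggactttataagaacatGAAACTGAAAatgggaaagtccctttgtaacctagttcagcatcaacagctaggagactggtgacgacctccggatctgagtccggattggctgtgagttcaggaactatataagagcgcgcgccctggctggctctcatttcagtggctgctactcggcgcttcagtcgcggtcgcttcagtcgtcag
In Igtp, TTCTAGGAA began 45 bases before the start and GAAACTGAAA 34 bases before it. In Bst2, TTCCAGGAA began 136 bases before the start and overlapped GAAAATGAAA, which itself overlapped GAAACTGAAA. In B2m, GAAACTGAAA began 139 bases before the start. The core of the response element was present in 5 of the 6 GTPases with a window, in 5 of 14 other interferon-stimulated genes and in 4 of 17 MHC class I genes, and in 3.44% of all 32851 promoter windows of this length. TTCNNNGAA was present in 3, 5 and 1 of the same genes and in 8.30% of all windows. The windows of Pml, H2-Q7 and S100a9 held neither set of letters. Tgtp1 and Tgtp2 are nearly identical and both held both sets, so they count as 2 GTPases each time. Some lists other than these also exceeded the share of all windows for the second set, such as 3 of 7 NF-kappaB genes. Others did not, such as glycolysis, where none of 10 genes held it. The core of the response element also exceeded its share of all windows in other lists, such as 6 of 56 cytosolic ribosomal protein genes (10.7%). In glycolysis none of the 10 genes held that core either. A match describes the letters only; binding was not measured.

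Ifi27l2a, a small interferon-inducible protein, had 6.68, 4.50, 5.57 and 5.58 CPM without stimulation and 24.4, 64.1, 31.5 and 33.2 CPM at 24 h. The lowest 24 h library lay above all unstimulated ones. Its log2 fold change was 2.79 ± 0.60 (edgeR adjusted p = 0.0606), and without replicate 3 it rose by 2.89 ± 0.62 (adjusted p = 0.0332). Irf7, the transcription factor that amplifies type I interferon responses, had 0, 3.60, 3.90 and 3.35 CPM and 8.14, 25.3, 26.1 and 15.6 CPM. Ly6a, a surface protein of lymphocytes and stem cells induced by interferon, had 3.34, 0.9, 5.02 and 6.70 CPM and 21.2, 21.7, 41.8 and 15.6 CPM. Bst2, which tethers budding virus to the cell, had 1.67, 0, 2.79 and 4.47 CPM and 11.4, 15.3, 13.9 and 13.5 CPM. None of these 3 overlapped between groups, and their edgeR adjusted p-values were 0.108, 0.1 and 0.166. Among the GTPases, Igtp had 0, 0, 2.23 and 1.12 CPM without stimulation and 6.51, 8.13, 25.2 and 7.26 CPM at 24 h, so replicate 3 held over 3 times the level of any other library. Ifi47 had 3.34, 1.80, 1.67 and 1.12 CPM and 16.3, 9.03, 23.4 and 9.34 CPM, again without overlap. Both are immunity-related GTPases that act on pathogen vacuoles. Tgtp1, of the same family, had 0, 3.60, 0 and 0 CPM and 13.0, 17.2, 19.7 and 19.7 CPM, but it is nearly identical to Tgtp2 and shared reads make its counts uncertain. Irgm1, a regulator of this family, had 1.67, 5.40, 3.34 and 3.35 CPM and 16.3, 6.32, 20.9 and 5.19 CPM, and 24 h replicate 4 lay just under the highest unstimulated library. Log2 fold changes of Igtp, Ifi47, Tgtp1 and Irgm1 were 3.54 ± 0.89, 2.98 ± 0.76, 4.16 ± 1.26 and 1.81 ± 0.60, none past the threshold (edgeR adjusted p = 0.105, 0.108, 0.19 and 0.221). Without replicate 3 they were 2.69, 2.535, 4.01 and 1.28 (edgeR adjusted p = 0.245, 0.175, 0.222 and 0.4395).

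Genes of MHC class I presentation showed the same direction at higher levels. All 19 tested members had positive log2 fold changes, with a median of 1.22, and 1.17 without replicate 3, and 8 of the 19 did not overlap between groups, beside 4.26% of all tested genes that lay wholly above at 24 h. Their summed level was 387, 309.5, 563 and 464 CPM without stimulation and 705, 1151, 1262 and 1108 CPM at 24 h. H2-Q7, a nonclassical class I molecule of the Qa-2 group, had 13.4, 14.4, 26.8 and 17.9 CPM and 47.2, 71.3, 61.1 and 89.3 CPM, without overlap. It rose by 1.92 ± 0.45 on the log2 scale without replicate 3 (edgeR adjusted p = 0.0426), and its value with all libraries was 1.86 ± 0.44 (adjusted p = 0.0994). H2-K1, a classical class I heavy chain, had 68.5, 38.7, 91.4 and 67.0 CPM and 153, 250.2, 227 and 206 CPM (log2 fold change 1.65 ± 0.43, edgeR adjusted p = 0.108). H2-Q6 had 8.35, 6.30, 16.2 and 23.5 CPM and 29.3, 87.6, 50.6 and 47.7 CPM, and H2-T22, a nonclassical molecule seen by some gamma delta T cells, had 1.67, 2.70, 3.90 and 0 CPM and 11.4, 12.6, 19.6 and 19.7 CPM. In each of these genes every 24 h library lay above every unstimulated one. Class I genes are close copies of each other, so the split of reads between H2-Q6 and H2-Q7 is uncertain. B2m, the light chain common to class I molecules, is unique and was named after its values were seen: it had 68.5, 53.1, 85.8 and 86.0 CPM and 122, 206, 200.1 and 176 CPM, again without overlap (log2 fold change 1.26 ± 0.42, edgeR adjusted p = 0.222). MHC class II genes, which serve antigen-presenting cells, had a median of 0.77, and 0.84 without replicate 3, all 12 positive and none free of overlap. Cd74, the invariant chain, had 207, 105, 180.0 and 248 CPM and 168, 439.8, 306 and 368 CPM.

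Among genes of lymphocytes, Btla and Arhgap45 were called without replicate 3, besides Lag3. The 7 tested genes of the T cell receptor list were all positive, with a median of 1.51 and 1.55 without replicate 3, and summed to 43.4, 80.1, 62.4 and 64.8 CPM without stimulation and 101, 199, 168 and 143 CPM at 24 h. None of the 7 was called and each overlapped between groups, although the sums did not. Btla, an inhibitory receptor of B and T cells, had 1.67, 0.9, 1.11 and 5.58 CPM and 6.51, 25.3, 8.40 and 22.8 CPM. Arhgap45 had 5.01, 6.30, 12.8 and 12.3 CPM and 19.5, 67.7, 28.8 and 45.7 CPM. In both genes the groups did not overlap. Without replicate 3, Btla rose by 3.05 ± 0.71 and Arhgap45 by 2.26 ± 0.52 on the log2 scale (edgeR adjusted p = 0.0426 and 0.0426). With all libraries the values were 2.82 ± 0.70 and 2.10 ± 0.50, neither past the threshold (adjusted p = 0.103 and 0.1). Of 10 tested genes for naive lymphocyte trafficking and quiescence, 9 were positive with and without replicate 3, at medians of 1.47 and 1.59. Of these genes 5 did not overlap, where 4.26% of all tested genes lay wholly above, among them S1pr1, the receptor that draws lymphocytes out of tissue, at 5.01, 3.60, 6.13 and 5.58 CPM and 13.0, 29.8, 16.1 and 22.8 CPM. Foxp1 and Satb1, transcription and chromatin regulators of resting T cells, had log2 fold changes of 1.58 ± 0.49 and 1.97 ± 0.66, and 1.66 ± 0.51 and 1.88 ± 0.71 without replicate 3, and did not overlap either.

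Genes of cytotoxic and activated T cells pointed the same way beyond Lag3. Of 8 tested members 7 were positive, with a median of 1.06, and 0.92 without replicate 3. Gzmb, a protease of cytotoxic granules, had 0, 3.60, 6.69 and 0 CPM without stimulation and 22.8, 19.0, 26.4 and 16.6 CPM at 24 h. Gzma, a second granule protease, had 1.67, 0.9, 12.3 and 7.82 CPM and 26.1, 12.6, 26.6 and 14.5 CPM. Serpina3g, a protease inhibitor of activated T cells, had 0, 0.9, 3.90 and 3.35 CPM and 8.14, 15.3, 19.1 and 16.6 CPM. None of the 3 overlapped between groups and none passed the threshold (edgeR adjusted p = 0.108, 0.308 and 0.19). Of the 8 tested members 4 did not overlap, where 4.26% of all tested genes lay wholly above at 24 h. Cd2 and Lck, general T cell genes, overlapped, with 5.01, 0.9, 0.557 and 0 CPM against 6.51, 19.0, 4.87 and 7.26 CPM for Cd2 and 8.35, 4.50, 7.80 and 11.2 CPM against 9.77, 19.0, 19.7 and 14.5 CPM for Lck.

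Most tested B cell genes had positive log2 fold changes, and plasma cell genes were split. Of 17 tested B cell genes 16 were positive, with a median of 1.13 and 1.33 without replicate 3, and none was called. Ighm, the IgM heavy chain, had 58.4, 46.8, 66.9 and 87.1 CPM and 127, 244, 117 and 228 CPM, Cd79b, a chain of the B cell receptor, had 20.04, 9.89, 16.2 and 22.3 CPM and 35.8, 47.0, 31.4 and 59.2 CPM, and Ly6d had 5.01, 2.70, 6.13 and 5.58 CPM and 17.9, 37.0, 11.9 and 21.8 CPM. None of the 3 overlapped. Ighd, the IgD heavy chain, did not overlap either, at a log2 fold change of 1.43 ± 0.49, and 1.49 ± 0.51 without replicate 3. Only 5 of the 17 tested B cell genes did not overlap, where 4.26% of all tested genes lay wholly above at 24 h. Jchain, which joins secreted IgA and IgM, had 107, 140.3, 184 and 109.5 CPM and 24.4, 16.3, 85.5 and 70.6 CPM, with every 24 h library below every unstimulated one. Its log2 fold change was -1.43 ± 0.53 (edgeR adjusted p = 0.246). Igha, the IgA heavy chain, had 571, 563, 617 and 260.3 CPM and 70.01, 31.6, 399.6 and 403 CPM, so that 24 h replicates 3 and 4 lay within the unstimulated range and replicates 1 and 2 far below it. Only 4 of 9 tested plasma cell genes were positive, with Mzb1, a chaperone of antibody secretion, at 1.09 ± 0.80, and 1.15 ± 0.86 without replicate 3. The median of this list was -0.22, -0.71 without replicate 3 and 0.00 under RLE scaling. No member was called, and the difference from the B cell list was not tested.

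S100a9, a subunit of calprotectin in neutrophils and inflammatory monocytes, had no count in any unstimulated library and 8, 3, 232 and 10 counts at 24 h, or 13.0, 2.71, 7.25 and 10.4 CPM. Over the group this is at least 10.7-fold higher, against a floor of 3 counts over the unstimulated libraries, and at least 11.5-fold without replicate 3. It was called without replicate 3 (edgeR adjusted p = 0.0456) and not with all libraries (adjusted p = 0.0877). Its partner S100a8 had 1 count over the unstimulated libraries, and 3.26, 0, 5.31 and 4.15 CPM at 24 h. Other inflammatory myeloid genes overlapped: Acod1, which makes itaconate in macrophages, had 1.67, 7.20, 6.13 and 1.12 CPM and 14.7, 0.903, 12.3 and 19.7 CPM, and Cxcr2, a chemokine receptor of neutrophils, had 5.01, 5.40, 1.11 and 6.70 CPM and 14.7, 7.22, 6.15 and 21.8 CPM.

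Enterocyte genes were low in 3 of the 4 libraries at 24 h and not in replicate 3. Their summed level was 297, 91.8, 988 and 278 CPM in unstimulated replicates 1 to 4 and 35.8, 28.0, 760.3 and 40.5 CPM at 24 h. Thus 24 h replicates 1, 2 and 4 lay below every unstimulated library, replicate 3 lay above 3 of them, and the unstimulated libraries spread over a range of more than 10 times. Of 9 tested members 6 fell in the comparison without replicate 3, where 0.369% of all tested genes were called lower, and none with all libraries, where 0.0263% were. The median log2 fold change was -4.41 without replicate 3 and -0.87 with it. Rbp2, which binds retinol in enterocytes, had 16.7, 6.30, 56.3 and 23.5 CPM without stimulation and 1.63, 0, 54.8 and 0 CPM at 24 h. Only 1 count remained at 24 h outside replicate 3, against 139 without stimulation, a ratio of 84.8 with a 95% counting interval of 15.0 to 3374 (edgeR adjusted p = 0.0108). With all libraries its log2 fold change was -0.64 ± 0.79 (adjusted p = 0.747). Apoa1, the main protein of high density lipoprotein, had 15.0, 0.9, 118 and 27.9 CPM and 0, 0, 47.4 and 2.08 CPM. Fabp1 and Fabp2, the fatty acid binding proteins of liver and intestinal type, had 86.8, 12.6, 187 and 49.1 CPM against 6.51, 6.32, 112 and 1.04 CPM and 18.4, 11.7, 138 and 23.5 CPM against 1.63, 2.71, 88.4 and 2.08 CPM. Replicate 3 stood alone at 24 h in each of these genes. Without it, Fabp1 fell by 4.19 ± 0.95 and Fabp2 by 4.41 ± 0.94 on the log2 scale (edgeR adjusted p = 0.0426 and 0.0322). Sis, the sucrase-isomaltase of the brush border, fell by 3.37 ± 0.80 (edgeR adjusted p = 0.0442). Anpep, a brush border peptidase, changed sign: its log2 fold change was 1.20 ± 1.01 with replicate 3 and -5.67 ± 1.86 without it, neither past the threshold. Unstimulated replicate 3 carried the highest enterocyte level, and without it the fold changes of Fabp2, Apoa1 and Rbp2 turned to 0.60, 0.065 and 0.14 while 24 h replicate 3 was kept. Thinning 24 h replicate 3 to 1075419 counts left the enterocyte median at -0.99, against -0.87 unthinned. Replicate 3 had both the largest share of protein-coding counts and the highest enterocyte level at 24 h, and the part of that share in the result was not tested.

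The same division ran through general epithelial genes. All 14 tested genes of epithelial identity and junctions had negative log2 fold changes with and without replicate 3, with medians of -0.92 and -2.64, and 4 were called lower without it, beside 0.369% of all tested genes. Their summed level was 377, 198, 813 and 432 CPM without stimulation and 55.4, 50.6, 732 and 132 CPM at 24 h. Cldn3 and Cldn7 encode claudins of tight junctions, and Lgals2 and Lgals4 encode galectins of the intestinal lining. Cldn3 had 30.1, 10.8, 31.2 and 14.5 CPM and 0, 0, 24.6 and 1.04 CPM, and Lgals4 had 58.4, 21.6, 134 and 70.4 CPM and 3.26, 0.903, 109 and 9.34 CPM. Without replicate 3 the log2 fold changes of Lgals4, Lgals2 and Cldn7 were -3.95 ± 0.77, -3.47 ± 0.68 and -3.29 ± 0.77 (edgeR adjusted p = 0.0174, 0.0174 and 0.0426). Cldn3 had 99 counts without stimulation and 1 at 24 h outside replicate 3, a ratio of 60.4 with a 95% counting interval of 10.6 to 2410 (adjusted p = 0.0174). Dmbt1, a mucosal glycoprotein that binds bacteria, had 28.4, 10.8, 59.6 and 17.9 CPM and 0, 1.81, 57.0 and 1.04 CPM (adjusted p = 0.0108 without replicate 3). Ces2e, an intestinal carboxylesterase, had 107 counts without stimulation and none at 24 h outside replicate 3, at least 21.8-fold lower (adjusted p = 0.0207), while replicate 3 held 32.9 CPM. Neither gene was in a list; both were named because the test without replicate 3 called them. Elf3, an epithelial transcription factor, had 31.7, 14.4, 40.1 and 32.4 CPM and 3.26, 2.71, 15.4 and 11.4 CPM, where replicate 3 lay just above the lowest unstimulated library. Gm25190, also called without replicate 3, is annotated as a miRNA gene (chromosome 10, 116531646 to 116531740, minus strand) and had 71.8, 58.5, 69.7 and 45.8 CPM and 0, 0, 109 and 16.6 CPM.

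**Figure D2:**
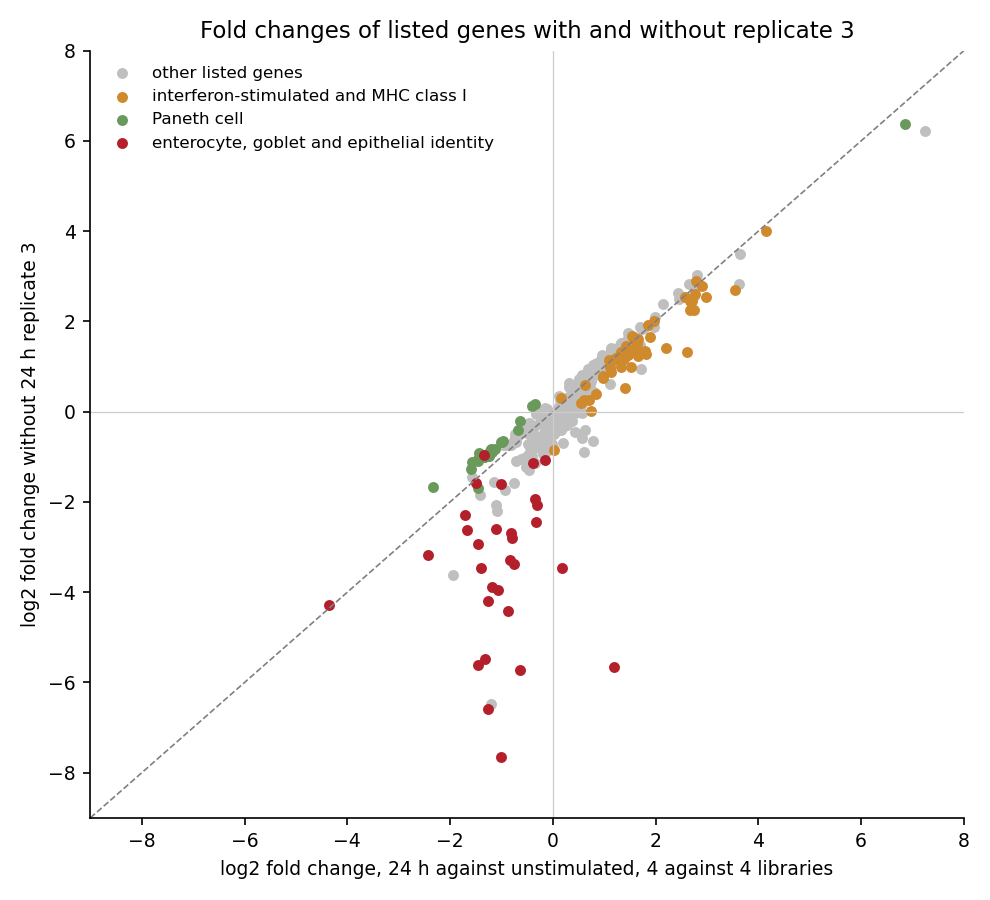
Log2 fold changes at 24 h against unstimulated for tested genes of the lists, with all 8 libraries (horizontal axis) and without 24 h replicate 3 (vertical axis); each point is a gene and the dashed line marks equal values. Interferon-stimulated and MHC class I genes (orange) have positive values with all libraries, and the median of the GTPases among them drops from 2.62 to 1.40. Enterocyte, goblet and epithelial identity genes (red) lie below the line except Zg16 and Spink4, such as Rbp2 at -0.64 and -5.72.

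Goblet and Paneth cell genes had mostly negative log2 fold changes at 24 h, and the summed Paneth level in CPM was lowest in replicate 3. All 7 tested goblet genes had negative log2 fold changes, with a median of -1.49 and -2.61 without replicate 3, and 3 of them, Zg16, Tff3 and Spink4, did not overlap with all libraries included (2.16% of all tested genes lay wholly below at 24 h). Tff3, a trefoil peptide of mucus, had 16.7, 3.60, 18.4 and 4.47 CPM and 0, 0.903, 3.03 and 2.08 CPM. Spink4, a protease inhibitor of goblet cells, had 21.7, 21.6, 26.2 and 17.9 CPM and 9.77, 16.3, 3.65 and 7.26 CPM, with replicate 3 the lowest in CPM. By share of total counts replicate 3 was not the lowest for Spink4, and the groups overlapped. Fcgbp, a mucus protein that binds IgG, had 16.7, 5.40, 17.8 and 17.9 CPM and 1.63, 0.903, 7.78 and 4.15 CPM and overlapped through replicate 3. Paneth cell genes summed to 4096, 6620.0, 5293 and 2634 CPM without stimulation and 2893, 1552, 679 and 3274 CPM at 24 h. In CPM, replicate 3 was thus the lowest library for Paneth genes while it was among the highest for enterocyte genes. That rank depends on its TMM factor of 3.896, against 0.7185 to 1.195 in the other 7 libraries. By share of total counts it was not the lowest, with 21740 of 9812458 counts, against 1719 of 1021788 in 24 h replicate 2. Of 27 tested Paneth genes 26 had negative log2 fold changes, with a median of -1.25. Without replicate 3 the median was -0.92 and 3 genes were positive, and none was called with or without replicate 3. The exception with all libraries, Defa31, had counts only at 24 h in replicates 3 and 4, and alpha-defensin genes share reads, so single members are uncertain. Lyz1, the Paneth cell lysozyme, had 451, 841, 697 and 341 CPM and 348, 164, 103 and 373 CPM (log2 fold change -1.25 ± 0.39, edgeR adjusted p = 0.207). Itln1, a lectin of the same granules, had 170.3, 340.0, 279.8 and 152 CPM and 124, 72.2, 41.3 and 164 CPM, and the alpha-defensin Defa30 had 292, 465, 336 and 226 CPM and 171, 123, 56.5 and 238 CPM. In all 3 the 24 h replicate 4 lay within the unstimulated range, and for Lyz1 replicate 1 did too. Olfm4, a marker of crypt base columnar cells, had 53.4, 93.6, 125 and 41.3 CPM and 22.8, 1.81, 87.3 and 28.0 CPM, and Reg3b, an antimicrobial lectin, had 45.1, 6.30, 98.7 and 14.5 CPM and 1.63, 4.51, 25.8 and 3.11 CPM. Both overlapped through replicate 3.

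**Figure D3:**
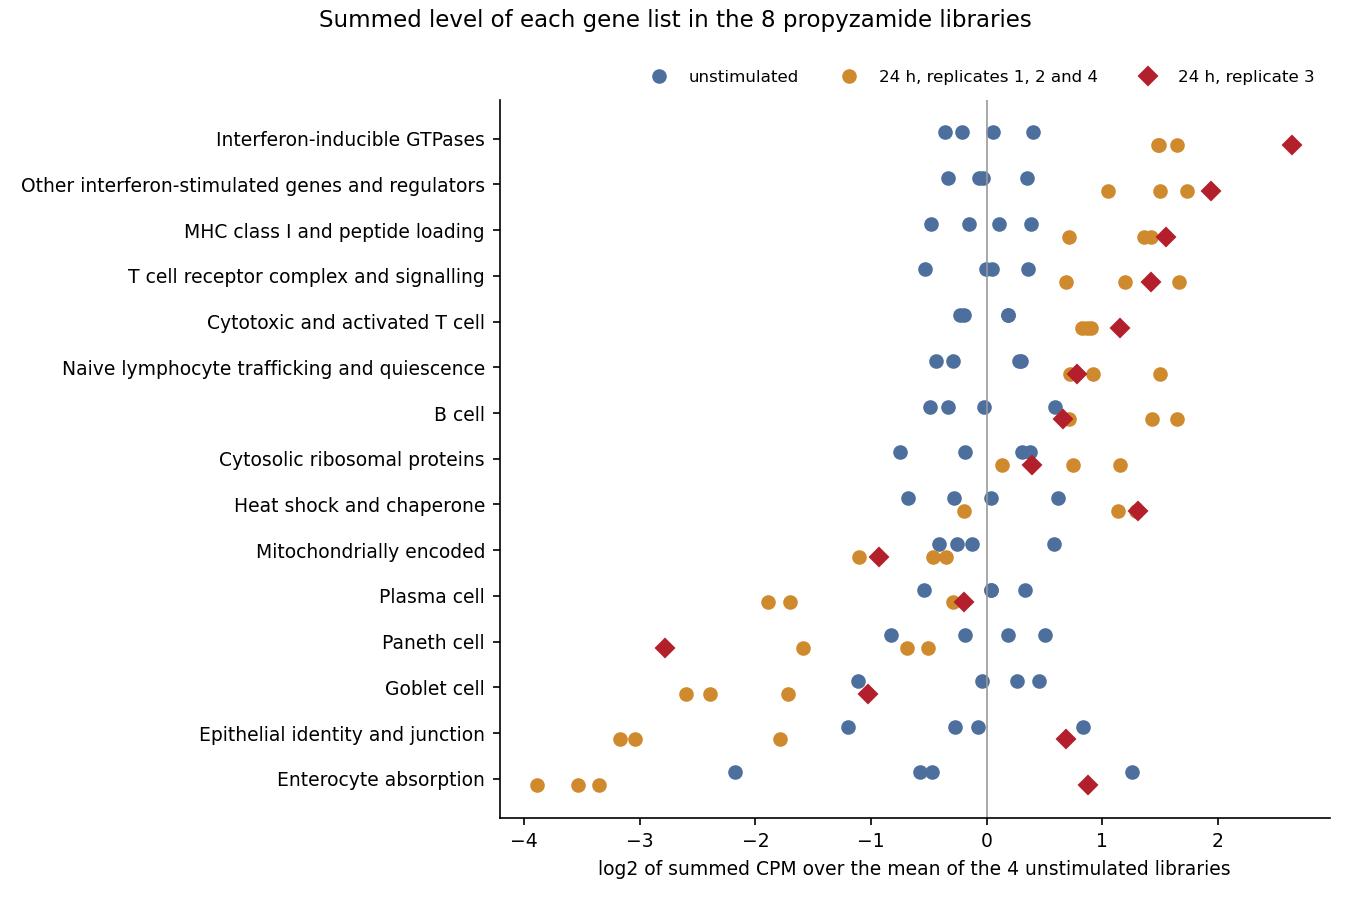
Summed level of 15 gene lists in each of the 8 propyzamide libraries, as log2 of the summed CPM over the mean of the 4 unstimulated libraries (horizontal axis). Blue points are unstimulated libraries, orange points 24 h replicates 1, 2 and 4, and red diamonds 24 h replicate 3. Replicate 3 is the highest 24 h library for interferon-inducible GTPases and for enterocyte genes, and the lowest for Paneth cell genes. By share of total counts it is not the lowest for Paneth cell genes.

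Among genes of general cell function the test called none. Heat shock and chaperone genes were all positive, 11 of 11, with a median of 0.99, and 10 of 11 with 0.93 without replicate 3. Hsp90aa1, a chaperone of signalling proteins, had 16.7, 6.30, 17.3 and 20.1 CPM and 26.1, 60.5, 46.7 and 51.9 CPM without overlap, and Hspa8 had 100.2, 99.8, 242 and 179.8 CPM and 142, 429.9, 420.0 and 391 CPM with replicate 1 at 24 h within the unstimulated range. Hspa1a, the inducible member, had 0, 7.20, 23.4 and 3.35 CPM and 8.14, 117, 39.6 and 76.8 CPM. Of 77 tested cytosolic ribosomal protein genes 76 were positive with and without replicate 3, at medians of 0.67 and 0.77, for example Rpl23 at 31.7, 16.2, 39.0 and 26.8 CPM and 60.2, 69.5, 54.2 and 59.2 CPM. Only 5 of the 77, Rpl23 among them, did not overlap, where 4.26% of all tested genes lay wholly above at 24 h. The summed level of the list overlapped between groups. All 15 mitochondrially encoded genes were negative at a median of -0.69, and without replicate 3 the median was -0.50 with 1 gene positive. These values follow the TMM scaling, whose factor was 3.896 in replicate 3. As a share of total counts, mitochondrially encoded genes were highest of the 8 libraries in 24 h replicate 3, at 5.515%. Replication and proliferation genes had 11 of 14 positive with and without replicate 3, at medians of 0.80 and 0.81. Mcm3, a subunit of the replicative helicase, had 1.67, 0.9, 15.6 and 6.70 CPM and 26.1, 28.9, 19.3 and 20.8 CPM without overlap, and Mcm5, another subunit, had 1.67, 1.80, 15.1 and 10.1 CPM and 17.9, 23.5, 14.8 and 18.7 CPM. Tubulins, the animal counterparts of the protein that propyzamide binds in plants, had 7 of 9 genes positive with replicate 3 and 5 of 9 without it, at medians of 0.57 and 0.07. Tubb5, a beta-tubulin, had 25.0, 32.4, 35.7 and 63.7 CPM and 63.5, 99.3, 97.3 and 120.4 CPM, and Tuba1b, an alpha-tubulin, had 33.4, 31.5, 71.3 and 59.2 CPM and 42.3, 79.5, 103 and 101 CPM, both overlapping. Genes of the NF-kappaB pathway had a median of 0.63, and 0.45 without replicate 3. Immediate early genes, which respond soon after a stimulus, changed the sign of their median with that library: it was 0.21 with 8 of 12 positive, and -0.09 with 6 of 12 positive without it.

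The vehicle libraries gave a separate measurement of the same stimulation, since they share no sample with the propyzamide comparison, only the estimate of spread in the fit. Their i5 index differed between unstimulated and 24 h in the same way, so in both comparisons index and stimulation cannot be told apart. With vehicle, 16 of 3799 genes were called (0.421%), 12 higher (0.316%) and 4 lower (0.105%), and all 16 had the same sign with propyzamide. Lag3 was called in both, and Ifi27l2a and S100a9 in vehicle and in propyzamide without replicate 3. Of the 22 genes called with propyzamide without replicate 3, 21 had the same sign with vehicle. The exception was Gm25190, at -3.35 ± 0.76 with propyzamide and 0.58 ± 0.73 with vehicle. The share of all tested genes with the same sign in both comparisons was not computed, so these sign counts have no background here. Lag3 rose by 3.03 ± 0.67 with vehicle (edgeR adjusted p = 0.0417) and Ifi27l2a by 3.64 ± 0.61 (adjusted p = 0.0049). Gbp2, a guanylate-binding protein induced by interferon gamma and picked for mention once its values were known, rose by 4.85 ± 0.84 with vehicle (adjusted p = 0.0049) and had 2.20 ± 0.79 with propyzamide (adjusted p = 0.242), or 1.40 ± 0.86 without replicate 3. Gzmb rose by 4.14 ± 0.84 with vehicle (adjusted p = 0.0264) against 2.74 ± 0.70 with propyzamide, and Pml had 1.75 ± 0.56 with vehicle (adjusted p = 0.245). Elf3, Olfm4 and Jchain fell with vehicle, by 3.46 ± 0.77, 3.09 ± 0.64 and 2.57 ± 0.58 (adjusted p = 0.0417, 0.0319 and 0.0417).

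The difference between the responses was tested directly, and it was past the threshold for no gene (0 of 3799, 0.00%, with edgeR; 89 genes, 2.34%, had an unadjusted p under 0.05). DESeq2 called 2 genes and limma-voom with quality weights none. Gbp2 had an interaction of -2.65 ± 1.20, propyzamide minus vehicle (unadjusted p = 0.0345, edgeR adjusted p = 1), Lag3 one of 0.62 ± 1.01 and Ifi27l2a one of -0.85 ± 0.84. Enterocyte genes had a median log2 fold change of -3.27 with vehicle, where the summed level was 146 to 212 CPM without stimulation and 23.9 to 43.4 CPM at 24 h. The 3 propyzamide libraries other than replicate 3 lay at 28.0 to 40.5 CPM, and replicate 3 at 760.3 CPM. A gene not called in this test is not thereby shown to respond alike, since the standard errors of the interactions named were 0.84 to 1.20 on the log2 scale.

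**Figure D4:**
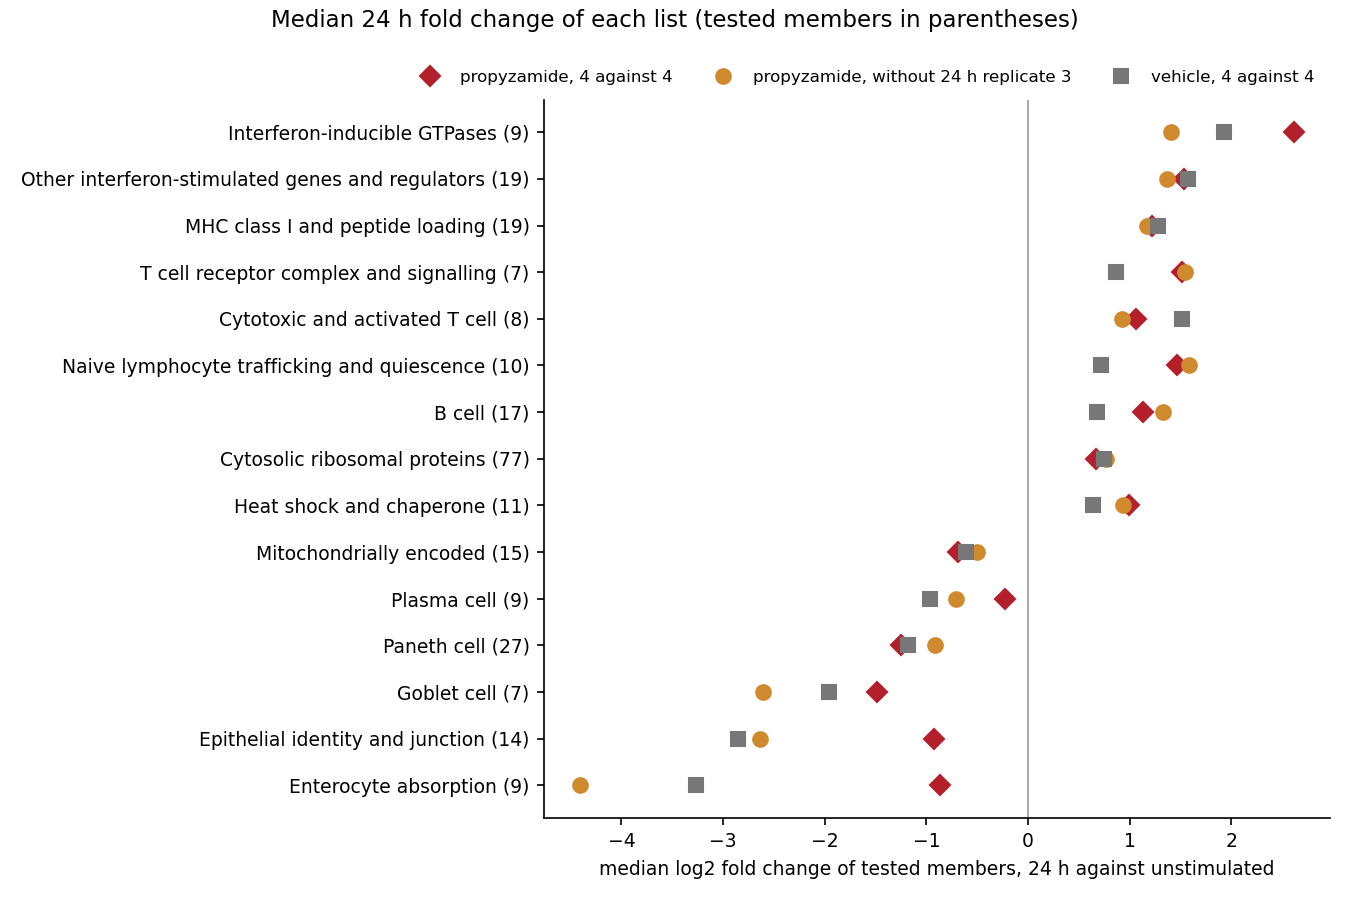
Median log2 fold change of the tested members of 15 lists, 24 h against unstimulated (horizontal axis), with propyzamide over all libraries (red diamonds), with propyzamide without 24 h replicate 3 (orange circles) and with vehicle (grey squares); numbers of tested members stand in parentheses. Lists above the mitochondrially encoded genes have positive medians in all 3 and the others negative ones, and enterocyte medians run from -4.41 to -0.87.

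At 3 h after anti-CD3 with propyzamide, a comparison that shares the 4 unstimulated libraries with the one at 24 h, 27 genes were called (0.711%), 6 higher (0.158%) and 21 lower (0.553%). The i5 index differed between these groups too. S100a9 was higher at 3 h already (edgeR adjusted p = 0.0158), from no count without stimulation to a mean of 17.8 ± 13.4 CPM (SD, n = 4), against 8.34 ± 4.43 CPM at 24 h. Serpina3g rose by 4.36 ± 0.81 at 3 h (adjusted p = 0.0158), beside 2.69 ± 0.82 at 24 h. Lag3 and Pml had log2 fold changes of 0.44 ± 0.87 and 0.24 ± 0.75 at 3 h, and Ifi27l2a one of -0.74 ± 0.72. Zg16 had -1.15 ± 0.68 at 3 h. Lyz1 fell by 2.12 ± 0.41 at 3 h (adjusted p = 0.0158), beside -1.25 ± 0.39 at 24 h. MHC class I genes had a median of -0.03 at 3 h and 1.22 at 24 h, and interferon-inducible GTPases 2.46 and 2.62. Without 24 h replicate 3 these medians at 24 h were 1.17 and 1.40. The background moved in the same direction between the 2 times. Across the 2464 tested genes that are protein-coding and named, the median log2 fold change was -0.42 at 3 h, with 760 positive. At 24 h it was 0.27, with 1582 positive, and 0.17 without replicate 3. A higher median at 24 h than at 3 h was therefore not particular to the MHC class I list. The 24 h and 3 h values were not tested against each other.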

How the data were processed

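SMART-seq2 libraries were quantified on GRCm38 with kallisto, per the submitters' processing notes, with no version given in the sources used here. Each deposited file lists 142604 transcripts with expected counts (kallisto's estimate, not scaled to depth) and TPM, per the file headers. Expected counts were summed to 55401 genes by the gene ID in each transcript name and rounded. Gene names are those of the files. Coordinates are from GENCODE M21 of the same build, matched on unversioned ID for 55141 genes. The strand used in counting is not given in the sources used here. Satellite-like models are the 12 that share at least 5% of their stretches of 31 bases with Gm10800.

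The comparison and the 35 gene lists were chosen with earlier results of these data known. Counts of all 24 libraries were fitted with edgeR 4.0.16 in R 4.3.3, with 1 coefficient for each of 6 groups, filterByExpr, TMM factors and the quasi-likelihood F test, and p-values were adjusted by Benjamini-Hochberg over 3799 genes. The fit without 24 h replicate 3 kept the same genes. SE is the absolute log2 fold change over the square root of F. The common dispersion was 0.215, a variation of 46.4% between replicates. Total counts of the 8 libraries ran from 630087 to 9812458, and 1 count was worth 0.0312 CPM in 24 h replicate 3 and 0.557 to 1.67 CPM in the other 7. The TMM factor was 3.896 in 24 h replicate 3 and 0.7185 to 1.195 in the other 7. A gene with no count in a group was given a floor of 3 counts over the group. Intervals (95%, exact) and floors reflect counting error alone, because PCR copies were not told apart by molecular identifiers.

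The text names the called protein-coding genes, up to 12 a direction by p, and up to 4 tested members of each list by p. Those called only without replicate 3, B2m and Gbp2 were added after their values were seen. Values of some genes that this rule would name are not reported here. Promoters came from the RefSeq windows of GRCm38.p6. The motifs searched, and the promoters printed because they hold them, were chosen after the data were seen. The edgeR fit was tested on simulated counts with known changes. These used the same dispersion for every gene and lacked the different make-up of 24 h replicate 3. They therefore do not show how the fit handles that library. Alternatives used DESeq2 1.42.0, limma 3.58.1, TPM on the scale log2(TPM + 1), other scalings and filters, and each library left out in turn.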

Additional observations from a re-analysis of the deposited data

Results flagged for a closer look

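In groups of 4 libraries, a highest or lowest value was listed where its gap to the next, over the range of the group, exceeded Dixon's 95% critical value, which chance gives in about 1 of 20 groups. Of 156 groups of 4 examined, for 4 measures of the libraries and the genes named, 29 had such a value, and 18 of these were 24 h replicate 3. Some of these genes were named because they were called only without that library, so this count cannot be set against the rate that chance gives.

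At 24 h, replicate 3 stood apart in total counts (9812458, next 1021788), in the share of named protein-coding counts (29.9%, next 8.63%) and in the share of satellite-like models (40.2%, next 79.4%). Its enterocyte and epithelial genes stood above the other 3 libraries: Fabp1 at 112 CPM, Fabp2 at 88.4, Apoa1 at 47.4, Rbp2 at 54.8, Sis at 26.9, Ces2e at 32.9, Anpep at 44.4, Dmbt1 at 57.0, Cldn3 at 24.6, Cldn7 at 42.6, Lgals2 at 20.8, Lgals4 at 109 and Reg3b at 25.8 CPM. The same was true of Igtp at 25.2 CPM and Gm25190 at 109 CPM. Cd2 stood apart in 24 h replicate 2 at 19.0 CPM, and Hspa8 in 24 h replicate 1, as the lowest, at 142 CPM.

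Among unstimulated libraries, replicate 3 was the highest for the share of mitochondrially encoded genes (5.49%, next 2.56%), for mt-Nd3 at 505 CPM and for Fabp2 at 138 CPM. Replicate 4 was the highest for Btla at 5.58 CPM and the lowest for Igha at 260.3 CPM. Replicate 2 was the only one with counts of Tgtp1, at 3.60 CPM, and of S100a8, at 0.90 CPM, and the lowest for Fcgbp at 5.40 CPM. Replicate 1 was the only one without Irf7, at 0 CPM.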

How the results depend on the processing

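The count of 3 called genes moved with most choices. It was 8 with RLE scaling, 1 with scaling from named protein-coding genes, 5 with only those genes tested, 34 with no filter, 0 with only the 8 libraries fitted and 0 when their filter was repeated, 71 with DESeq2 (55 higher and 16 lower), 1 with limma-voom and quality weights, 2 on log2(TPM + 1) and 4 with the deepest library thinned. Leaving out each of the 8 libraries in turn gave 0 to 22. Without 24 h replicate 3 the count of 22 was 21 with the filter repeated and 49 with only named protein-coding genes. Under alternatives chosen after seeing the data it was 57 with DESeq2, which kept 21 of the 22 genes, 11 with RLE, 11 with only the 7 libraries, 10 of these among the 22, and 0 with limma-voom. The cause of these differences was not tested.

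The interaction with vehicle, at 0 genes, gave 20 with no filter and 2 with DESeq2, and 1 with DESeq2 without 24 h replicate 3. Leaving out each library gave 0 in all 8 fits. The satellite-like share, at a difference of -7 percentage points (24 h minus unstimulated), was 3.04 without 24 h replicate 3. The mitochondrial share, at a difference of -0.255 points, was 0.0869 without 24 h replicate 1, 0.168 without 24 h replicate 2, 0.527 without unstimulated replicate 3, and 0.0498 from TPM. Over the fits leaving out a library, differences ran from -10.9 to 3.04 for the satellite-like share and from -1.13 to 0.527 for the mitochondrial one.

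Among named genes, signs turned without unstimulated replicate 3 in Fabp2, Apoa1 and Rbp2, whose log2 fold changes over the 8 fits that left out a library ran from -4.41 to 0.60, -5.61 to 0.065 and -5.72 to 0.14. Anpep ran from -5.67 without 24 h replicate 3 to 2.58 without unstimulated replicate 3, and turned in fits that also left it out to -5.66 with the filter repeated, -4.71 with DESeq2, -5.81 with RLE, -5.55 with 7 libraries and -2.68 with limma-voom. The lists of interferon-stimulated, MHC and T cell genes kept positive medians in all 24 settings run, and Paneth, goblet and epithelial identity lists kept negative ones. Named protein-coding counts limit precision most in the 7 shallow libraries. No paired analysis was possible because the labels carry no replicate numbers.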

Other observations

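Several cell types that anti-CD3 could touch were not readable at this depth. No gene passed the filter among the 11 dendritic cell, 8 NK cell, 9 mast cell and basophil, 13 fibroblast and smooth muscle genes, or the 7 genes of the aryl hydrocarbon receptor, a sensor of foreign compounds. The fibroblast and smooth muscle genes summed to 6, 49, 115 and 11 counts without stimulation and 21, 7, 2412 and 15 counts at 24 h, the 2412 in replicate 3. The aryl hydrocarbon receptor genes summed to 5, 31, 38 and 16 counts and 9, 16, 964 and 13 counts. Of 20 cytokine genes, 2 passed the filter, so most of this list could not be tested. Both had positive log2 fold changes with all libraries, at a median of 0.67. Without replicate 3, 1 of the 2 was positive, at a median of 0.51, and neither was called.

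Glycolytic genes had positive log2 fold changes in 10 of 10 tested members with replicate 3 and in 6 of 10 without it, at medians of 0.49 and 0.21, and none was called. Pkm, the pyruvate kinase of dividing and immune cells, had 26.7, 18.9, 39.0 and 38.0 CPM without stimulation and 30.9, 70.4, 80.9 and 65.4 CPM at 24 h. Nuclear-encoded genes of oxidative phosphorylation had 27 of 53 positive at a median of 0.04, and 11 of 53 at -0.32 without replicate 3. Resident macrophage genes had 5 of 9 positive at a median of 0.19, and 3 of 9 at -0.14 without replicate 3. Cell death genes had 4 of 7 positive at a median of 0.30, and 0.32 without replicate 3. Myc had 11.7, 2.70, 7.80 and 11.2 CPM without stimulation and 1.63, 21.7, 13.2 and 10.4 CPM at 24 h, and Birc3, an inhibitor of cell death induced through NF-kappaB, had 10.02, 7.20, 8.36 and 12.3 CPM and 11.4, 12.6, 16.2 and 27.0 CPM. The groups overlapped in both.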
